A study of Mus musculus with 22 samples.

Results

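Macrophages and their myeloid relatives are described here through 31 genes that mark them, followed across cultured mouse mammary cells, the tumours that such cells formed after transplantation, and primary mammary cancers. The genes were taken from a list of names (lysosomal, complement, Fc receptor, scavenger receptor, lipid-handling, arginine-metabolising, leukocyte surface and chemokine genes), not by a measured value. All 31 were found in both tables of FPKM values (fragments scaled to transcript length and library size), among 23993 gene symbols in the first table, with 16 libraries, and 23490 in the second, with 6 libraries.

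Macrophages arise from monocytes that enter a tissue or from resident cells, and they depend on CSF1, whose receptor is encoded by Csf1r, and on the transcription factor PU.1, encoded by Spi1. They take up dead cells, immune complexes and lipoproteins through scavenger and Fc receptors and degrade them in lysosomes. In the mammary gland they lie along the ducts, and they accumulate in tumours.

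The cells came from C57Bl/6 mice and were grown either in a mammary-optimised medium, called EpiC in the labels, or by conditional reprogramming (CRC), a method that usually employs irradiated fibroblast feeders. All donors were nulliparous females that carried Cre under the MMTV promoter, which is active mainly in mammary epithelium, and 1 lost allele of p53. The CYP19A1 genotype held a Tet-op-CYP19A1 transgene (aromatase) with MMTV-rtTA, p53-/+ and MMTV-Cre. The Brca1het genotype held 1 floxed exon 11 allele of Brca1 beside a wild-type allele (Brca1fl 11/WT), MMTV-Cre and Trp53-/+, and the Brca1hom genotype held floxed alleles on both copies (Brca1fl11/fl11), MMTV-Cre and Trp53-/+. The first table held 3 CRC cultures and 3 EpiC cultures, in each medium 1 per genotype (culture 1 CYP19A1, culture 2 Brca1het, culture 3 Brca1hom). It also held 10 allografts. CYP19A1 cells gave 6C from CRC and 7B from EpiC, Brca1het cells gave 10B, 10C and 11C from CRC with 4C and 5A from EpiC, and Brca1hom cells gave 1, 2 and 12, all from CRC. Allograft hosts were nude mice (NU (NCr)-Foxn1nu), which lack thymus-derived T cells and keep their myeloid cells. The second table held primary cancers 1 and 2, both Brca1het, with a CRC culture and an EpiC culture of each. The sources used here give no ages for the animals, and allografts 10B and 10C may have shared a host, since they share a number. The titles of primary cancers 1 and 2 also begin with a shared number, so both cancers may have come from the same mouse.

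FPKM sums per library lay between 466441 and 825216 in the first table, and between 607519 and 710511 in the second except for the CRC culture of cancer 2, at 1615927. Sequencing depth is unknown, because fragment counts could not be recovered from the values. Epithelial markers (Epcam, Cdh1, keratins and others) summed to 1609.9 to 15329 FPKM in the cultures other than EpiC culture 3, which held 4.2 FPKM and so goes against its epithelial label. Fibroblast markers summed to 3371 to 6317 FPKM in the 3 EpiC cultures of the first table, against 29.5 to 55.8 FPKM in the 3 CRC cultures. Leaving out EpiC culture 3 kept 85 of 88 calls on the macrophage genes, and the 3 that it ended are named where they occur. No label states separate animals for the libraries within a group, so each p-value measures the spread between these libraries.

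PU.1 binds the core letters GAGGAA, and the windows upstream of the macrophage genes are shown because most of these genes were higher in the allografts than in the cultures. RefSeq start sites of build GRCm38.p6 were at hand for 23 of the 31 genes (not for C1qa, Csf1r, Spi1, Tyrobp, Cd14, Msr1, Arg1 and Nos2). GAGGAA was searched on both strands (TTCCTC on the other) in the 250 bases before the start, and it was present for 14 of the 23 genes (60.9%), against 25.9% of all 27025 genes with an entry. The longer string GAGGAAGT (ACTTCCTC on the other strand), which holds GAGGAA within it, was present for C1qc and Pf4 alone, or 8.7% of the 23 genes, against 2.79% of all genes. A match is a string of letters and not a bound site. The genes without a match were Lyz2, Cybb, Fcgr2b, Fcer1g, Cd163, Gpnmb, Itgax, Cx3cr1 and Ccr2, so genes that rose strongly were among them. The windows of 5 genes with a match are printed 5′ to 3′ on the strand of the gene, with GAGGAA or TTCCTC in capitals. Ctss (chr3:95526536-95526785, plus strand), C1qb (chr4:136886201-136886450, minus strand), Itgam (chr7:128062390-128062639, plus strand) and Pf4 (chr5:90772185-90772434, plus strand) were close to 0 in every culture of the first table and high in the allografts, whereas Trem2 (chr17:48346151-48346400, plus strand) was also present in the EpiC cultures.
Ctss: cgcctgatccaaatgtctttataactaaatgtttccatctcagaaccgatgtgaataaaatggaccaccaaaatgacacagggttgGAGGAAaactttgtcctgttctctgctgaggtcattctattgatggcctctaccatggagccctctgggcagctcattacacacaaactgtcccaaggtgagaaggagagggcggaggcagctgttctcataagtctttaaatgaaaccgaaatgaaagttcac
C1qb: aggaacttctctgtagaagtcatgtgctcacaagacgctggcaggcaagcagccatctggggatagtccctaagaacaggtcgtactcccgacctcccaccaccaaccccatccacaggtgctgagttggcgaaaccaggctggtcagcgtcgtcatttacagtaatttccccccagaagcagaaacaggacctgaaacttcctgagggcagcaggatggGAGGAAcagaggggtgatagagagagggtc
Itgam: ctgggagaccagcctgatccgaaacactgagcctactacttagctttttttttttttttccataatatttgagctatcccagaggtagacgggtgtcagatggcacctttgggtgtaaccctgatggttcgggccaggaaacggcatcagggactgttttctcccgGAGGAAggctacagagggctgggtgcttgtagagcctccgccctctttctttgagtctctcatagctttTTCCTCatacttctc
Pf4: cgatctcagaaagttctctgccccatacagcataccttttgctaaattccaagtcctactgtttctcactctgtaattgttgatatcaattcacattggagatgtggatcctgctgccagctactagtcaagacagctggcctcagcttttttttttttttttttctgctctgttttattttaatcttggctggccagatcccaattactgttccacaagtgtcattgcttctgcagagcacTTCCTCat
Trem2: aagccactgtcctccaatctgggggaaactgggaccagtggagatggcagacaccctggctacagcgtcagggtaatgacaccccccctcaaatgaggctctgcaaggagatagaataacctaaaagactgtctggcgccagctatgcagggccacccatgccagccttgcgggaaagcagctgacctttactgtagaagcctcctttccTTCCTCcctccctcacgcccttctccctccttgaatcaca

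The allografts held far more RNA of these genes than the cultures. The 31 values summed to 7587 to 21397 FPKM in the 10 allografts and to 97.9 to 593 FPKM in the 6 cultures. In 26 of the 31 genes (83.9%) every allograft stood above every culture, against 6.35% of all genes that averaged 1 FPKM or more. Fewer cells of a type and less RNA per cell cannot be told apart in such bulk samples, and since graft and host are both mouse, RNA of host cells cannot be told from RNA of grafted cells. With limma on log2(FPKM + 1), 28 of the 31 genes rose in allografts over cultures and none fell, against 18.2% of 12325 tested genes called higher and 16.4% called lower. The median difference was 5.50 on the log2 scale over the 31 genes and 0.0127 over all tested genes. Of the 31 genes, 20 were under 1 FPKM in all 6 cultures and so entered the test through their allograft levels alone, which makes the count a description and not support.

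**Figure D1:**
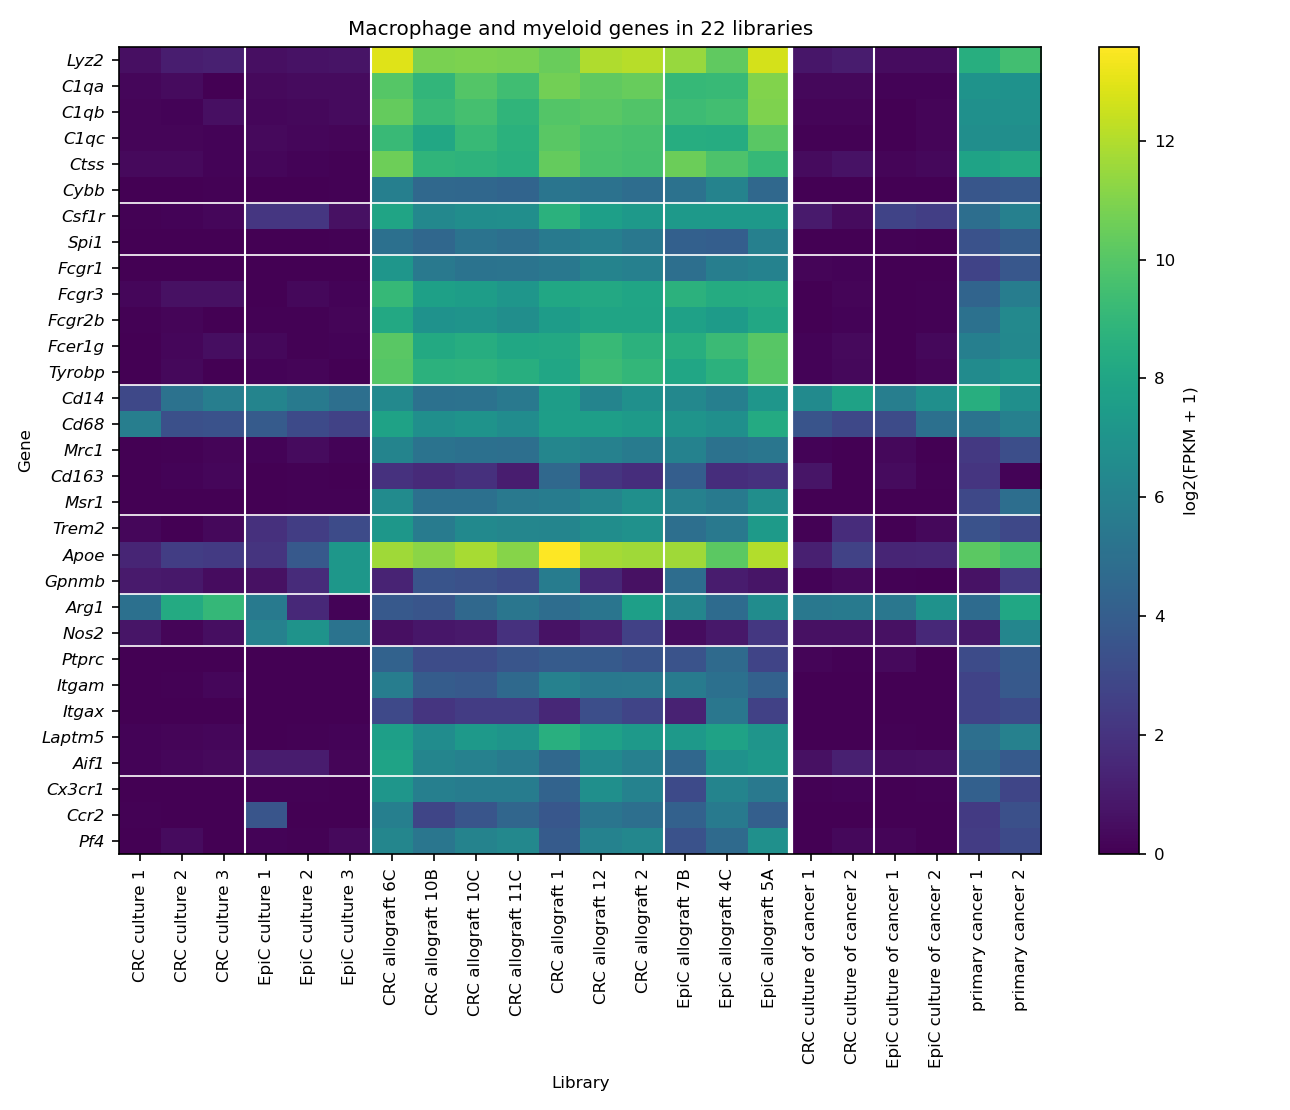
Levels of the 31 genes (rows, grouped by role) in the 22 libraries (columns, grouped by kind), as log2(FPKM + 1) on a colour scale. The 10 allografts are high in most rows, and the 6 cultures of the first table are under 1 FPKM in 20 rows. Cd14, Cd68, Apoe, Gpnmb, Arg1 and Nos2 show colour in at least some cultures as well, and Csf1r, Trem2 and Ccr2 do so more weakly.

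Lysozyme, protease and complement genes were the most abundant of the list along with Apoe, on the FPKM scale, which is per transcript length and allows levels of different genes to be compared. Lyz2, which encodes the lysozyme of macrophages and neutrophils, had a lowest value of 1412, a median of 1897 and a highest value of 7658 FPKM in the 7 CRC allografts, and 2894 (7B), 1205 (4C) and 6589.9 (5A) FPKM in the EpiC allografts. The cultures held 0.470 to 1.28 FPKM, so the groups were far apart, with a log2 difference of 10.72 ± 0.40 (SE). Part of the Lyz2 signal is uncertain, because the near-identical Lyz1 (2.24 to 147.7 FPKM in the allografts) could share its reads.

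C1qa, C1qb and C1qc encode the chains of C1q, the first component of complement, which tissue macrophages secrete, and they are adjacent protein-coding genes on chromosome 4. C1qa stood at 481, 1005 and 1624 FPKM (lowest, median and highest) in the CRC allografts and at 549 (7B), 562 (4C) and 2065 (5A) FPKM in the EpiC allografts. In the cultures C1qa was listed at 0 to 0.324 FPKM. C1qa over C1qc was 1.45 to 1.90 in all 10 allografts, while C1qb over C1qc ran from 0.885 (CRC allograft 1) to 2.26 (CRC allograft 6C). Log2 differences between allografts and cultures were 9.62 ± 0.31 for C1qa, 9.54 ± 0.27 for C1qb and 8.98 ± 0.29 for C1qc (SE), with adjusted p of 1.38e-11, 3.89e-12 and 1.55e-11 by limma. Ctss, a lysosomal cysteine protease of antigen-presenting cells, stood at 373, 754 and 1511 FPKM (lowest, median and highest) in the CRC allografts, at 1499.6 (7B), 897 (4C) and 538 (5A) FPKM in the EpiC allografts, and at 0.0472 to 0.284 FPKM in the cultures. Cybb, the catalytic subunit of the phagocyte NADPH oxidase, was far lower, at 20.01 to 65.2 FPKM in the allografts and at most 0.0681 FPKM in a culture.

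Of the growth factor receptor and the lineage regulator, Csf1r separated the kinds of culture. It stood at 80.9, 157 and 410.0 FPKM (lowest, median and highest) in the CRC allografts and at 154 (7B), 162 (4C) and 159 (5A) FPKM in the EpiC allografts. CRC cultures held 0.0514, 0.0910 and 0.168 FPKM, and EpiC cultures 1 to 3 held 3.46, 3.42 and 0.502 FPKM. Every EpiC culture was above every CRC culture and every allograft was above both. Spi1 was lower, at 15.8 to 59.7 FPKM in the allografts and at most 0.0482 FPKM in a culture. The log2 differences were 6.66 ± 0.38 for Csf1r and 5.004 ± 0.27 for Spi1 (SE), with adjusted p of 6.88e-09 and 3.72e-09 by limma.

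All 5 Fc receptor and adaptor genes rose. Tyrobp (the adaptor DAP12, which carries the signal of TREM2 and other receptors) and Fcer1g (the common Fc receptor gamma chain) were the highest, at 259 to 1034 FPKM and 273 to 1119 FPKM in the allografts. Fcgr3, an activating receptor for immunoglobulin G, spanned 140.2 to 543 FPKM, and the inhibitory receptor Fcgr2b spanned 105 to 291 FPKM. The high-affinity receptor Fcgr1 spanned 30.1 to 140.3 FPKM. In the cultures none of the 5 exceeded 0.523 FPKM, and Fcgr1 was listed at 0 in 4 of 6. The log2 differences ran from 5.73 ± 0.28 (Fcgr1) to 8.78 ± 0.31 (Tyrobp; SE). Reads could be split among related Fc receptor genes; Fcgr4, which is not on the list, spanned 12.5 to 68.0 FPKM in the allografts.

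Scavenger and pattern receptors divided into genes nearly absent from cultures and genes that cultures held as well. Mrc1, the mannose receptor, was 29.8 to 74.2 FPKM in the allografts and at most 0.306 FPKM in the cultures, and Msr1, the class A scavenger receptor, was 30.9 to 106 FPKM and at most 0.0604 FPKM. Cd163, the haemoglobin scavenger receptor, was low in 8 allografts (1.09 to 3.22 FPKM) and high in CRC allograft 1 (23.0 FPKM) and EpiC allograft 7B (15.4 FPKM). Cd68, a lysosomal membrane glycoprotein, was 96.6 to 319 FPKM in the allografts, while the cultures held 5.41 to 13.9 FPKM except for CRC culture 1, at 54.1 FPKM.

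Cd14, the coreceptor for lipopolysaccharide, was the least separated of the genes that rose. CRC cultures 1 to 3 held 6.75, 33.6 and 55.6 FPKM and EpiC cultures 1 to 3 held 67.7, 47.8 and 30.2 FPKM, against an allograft range of 32.2 to 187 FPKM, so that 4 of the 6 cultures fell inside that range and 2 below it. The difference was 1.30 ± 0.42 (log2 ± SE), with an adjusted p of 0.0284 by limma. The call ended without CRC culture 1 (adjusted p 0.105), without EpiC culture 3 (0.0522) or without CRC allograft 6C (0.0555).

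**Figure D2:**
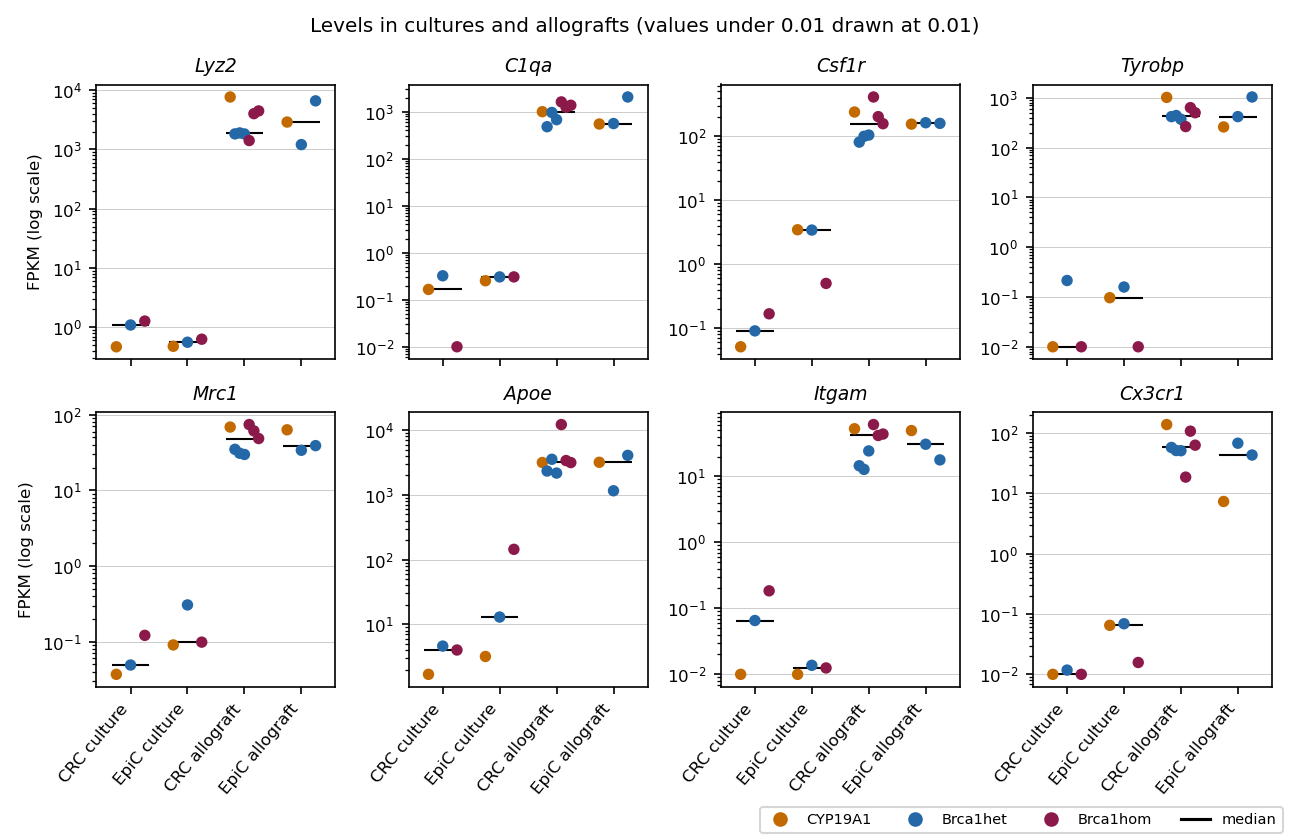
FPKM of Lyz2, C1qa, Csf1r, Tyrobp, Mrc1, Apoe, Itgam and Cx3cr1 in each library of the first table, on log axes, by group; points are libraries coloured by genotype, lines are group medians, and values under 0.01 are drawn at 0.01. Allografts stand above cultures in every panel, and the EpiC cultures stand above the CRC cultures for Csf1r (0.502 to 3.46 against 0.0514 to 0.168 FPKM).

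Apoe, the apolipoprotein that macrophages and other cells secrete, reached 1158 to 12218 FPKM in the allografts, the highest level of any of the 31 genes. Cultures held 1.68 to 12.9 FPKM, except EpiC culture 3, which held 144 FPKM and is the library without epithelial markers. Trem2, a lipid-sensing receptor that signals through the Tyrobp adaptor, stood at 49.2, 87.2 and 142 FPKM (lowest, median and highest) in the CRC allografts and at 30.5 (7B), 44.4 (4C) and 170.4 (5A) FPKM in the EpiC allografts. CRC cultures held at most 0.223 FPKM of Trem2, while EpiC cultures 1 to 3 held 2.70, 4.48 and 7.58 FPKM, with Tyrobp at most 0.158 FPKM in the same cultures. Gpnmb, a glycoprotein of lipid-laden macrophages and of other cells, did not separate the states: the allografts spanned 0.553 to 50.4 FPKM and EpiC culture 3 held 144 FPKM. Its difference was 0.87 ± 1.05 (log2 ± SE), with an adjusted p of 0.545 by limma.

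Arg1 and Nos2, the arginine-consuming enzymes by which macrophage activation is often scored, were present in cultures in which Lyz2, C1qa and Tyrobp were close to 0. Arg1 was 31.6, 317 and 518 FPKM in CRC cultures 1 to 3 and 45.6, 1.97 and 0.0859 FPKM in EpiC cultures 1 to 3. Allografts held 10.9 to 202 FPKM of Arg1, between the extremes of the cultures. Nos2 was 61.0, 125 and 35.3 FPKM in EpiC cultures 1 to 3 and 0.698, 0.132 and 0.408 FPKM in the CRC cultures. Allografts held 0.343 to 5.20 FPKM of Nos2, under every EpiC culture. Nos2 thus separated the kinds of culture, whereas Arg1 overlapped between them.

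Leukocyte surface and cytoplasmic genes rose as a group of 5 of 5. Laptm5, a lysosomal membrane protein of blood cells, was the most abundant, at 97.3 to 380.5 FPKM in the allografts and at most 0.186 FPKM in the cultures. Itgam (CD11b, the integrin of monocytes, macrophages and neutrophils) was 12.8 to 61.0 FPKM, and its adjacent gene on chromosome 7, Itgax (CD11c, common on dendritic cells and some macrophages), was 1.43 to 8.70 FPKM except for EpiC allograft 4C, at 41.5 FPKM. Itgam over Itgax accordingly ran from 0.740 in EpiC allograft 4C to 34.7 in EpiC allograft 7B. Ptprc (CD45) was 5.90 to 24.6 FPKM, and Aif1, a calcium-binding protein of macrophages, was 22.2 to 231 FPKM.

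Chemokine genes rose in 3 of 3. Cx3cr1, the fractalkine receptor of resident-type monocytes and macrophages, was 43.4 to 139 FPKM in 8 allografts, 18.7 FPKM in CRC allograft 1 and 7.35 FPKM in EpiC allograft 7B. Ccr2, the receptor that brings inflammatory monocytes into tissue, was 6.18 to 56.5 FPKM in the allografts and at most 0.0445 FPKM in 5 cultures, but 11.2 FPKM in EpiC culture 1, above 2 of the allografts. Cx3cr1 over Ccr2 ran from 0.414 in EpiC allograft 7B to 9.37 in CRC allograft 10B. Pf4, a chemokine of platelets and of some tissue macrophages, was 9.61 to 110.4 FPKM in the allografts and at most 0.304 FPKM in the cultures.

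Genes that work with the 31 were counted in the same fit. Of 11 tested further macrophage genes 11 rose, among them Ms4a6c (6.88 ± 0.18, log2 ± SE) and Mpeg1 (6.57 ± 0.28). All 5 partners of Cybb in the NADPH oxidase rose, with Ncf4, a cytosolic subunit, at 5.75 ± 0.26. Of 10 Fc receptor and ITAM signalling genes 9 rose, and Plcg2 did not pass the test (0.45 ± 0.52, adjusted p 0.533 by limma). Among 9 other complement genes 7 rose and 1 fell, among 8 other myeloid transcription factors 6 rose and 1 fell (Cebpb, by -0.92 ± 0.23), and of 11 lysosome genes 7 rose, with Ctsd at -0.07 ± 0.37. Of 8 macrophage growth factors and monocyte attractants 3 rose, including Ccl12 (5.94 ± 0.96), while Csf1 did not pass the test (1.15 ± 0.49, adjusted p 0.0806). The media differed here: 6 of the 8 rose and none fell in CRC, 1 rose and 2 fell in EpiC, and 4 interactions of medium and state were called. Markers of other cells moved as well: 7 of 7 tested endothelial genes and 4 of 8 fibroblast genes rose and 6 of 8 epithelial genes fell, and their part in the result was not tested. Within CRC 8 of 8 fibroblast genes rose and 6 of 8 epithelial genes fell, whereas within EpiC no fibroblast gene rose, 2 fell, and no epithelial gene was called. Of all tested genes 21.2% rose and 18.4% fell in CRC, and 7.94% rose and 6.26% fell in EpiC. The interaction was called for 12.2% of all tested genes. Genes of T, B and NK cells summed to 2.61 to 18.9 FPKM in the allografts.

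The rise was next compared between the media. In CRC allografts over CRC cultures 27 of 31 genes rose and none fell (21.2% of all tested genes rose and 18.4% fell), and in EpiC allografts over EpiC cultures 27 rose (7.94%) and Nos2 fell (6.26% of genes fell). Cd14, Gpnmb and Arg1 passed in neither, and Nos2 passed in EpiC alone. A medium by state interaction, the CRC difference minus the EpiC difference, was called for 3 genes, against 12.2% of all tested genes in either direction. For Nos2 the allografts differed from cultures by 0.69 ± 0.50 in CRC and by -4.96 ± 0.60 in EpiC, an interaction of 5.65 ± 0.78 (log2 ± SE; adjusted p 0.000375 by limma). For Trem2 the differences were 6.23 ± 0.45 and 3.58 ± 0.54, an interaction of 2.64 ± 0.70 (adjusted p 0.025), and for Arg1 they were -2.47 ± 1.14 and 3.71 ± 1.37, an interaction of -6.18 ± 1.79 (adjusted p 0.0377). The Nos2 call held in each alternative run. Without EpiC culture 3 the adjusted p was 0.0518 for Trem2 and 0.0584 for Arg1, and calls of both ended without several other libraries. The Arg1 call held in 9 of 22 alternatives, and it also ended with a pseudocount of 0.1 (0.0514), without a filter (0.0723) and with 10B and 10C as 1 sample (0.0629).

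**Figure D3:**
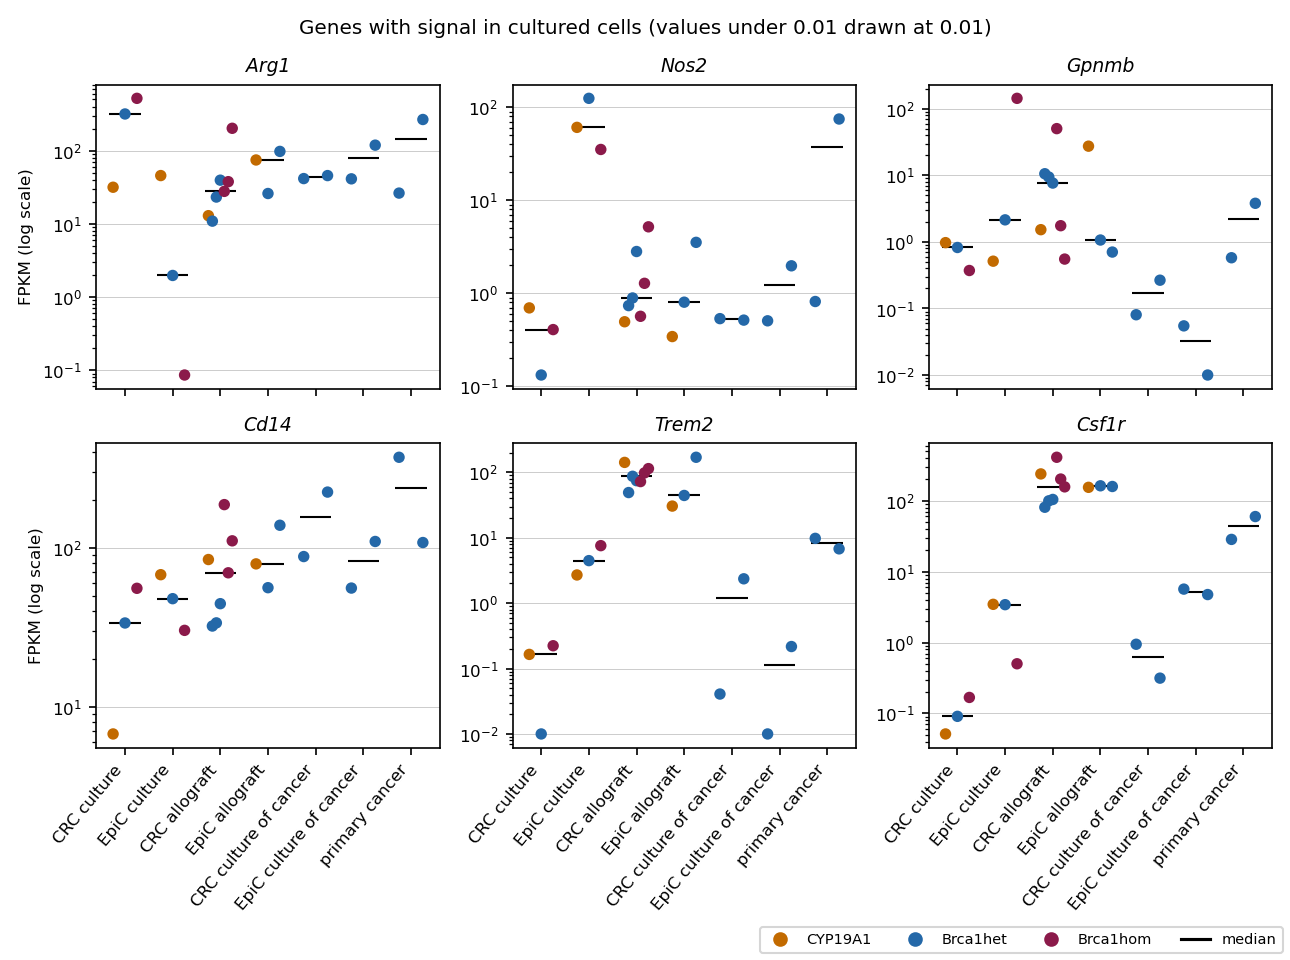
FPKM of Arg1, Nos2, Gpnmb, Cd14, Trem2 and Csf1r in each library of all 7 groups, on log axes; lines are medians. These genes are held by some cultures: Nos2 is 35.3 to 125 FPKM in the EpiC cultures of the first table, against at most 5.20 FPKM in any allograft.

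The same 6 cultures enter the interaction, so a difference between them is part of it by construction. In a fit of the 6 cultures alone 9 of the 31 genes passed the filter, and CRC was lower than EpiC for Trem2 (-2.31 ± 0.31, adjusted p 0.0163) and Nos2 (-5.56 ± 0.45, adjusted p 0.00733), against 11.7% of all tested genes called lower; none was higher, against 11.4%. Trem2 and Nos2 were under 1 FPKM in every CRC culture, so they passed the filter through their EpiC levels alone. These calls are therefore a description and not support. Csf1r (-1.49 ± 0.44, adjusted p 0.0751) and Arg1 (5.04 ± 1.91, adjusted p 0.12 by limma) did not pass. The Trem2 call ended without culture 2 of either medium. Ccl2, the ligand of the Ccr2 receptor, was 4.65 to 15.8 FPKM in CRC cultures and 502 to 958 FPKM in EpiC cultures, a difference of -6.33 ± 0.30 (adjusted p 0.00276 by limma), and Csf1 was 6.93 to 18.3 against 128 to 174 FPKM, a difference of -3.65 ± 0.22 (adjusted p 0.00417). Fibroblast markers differed between these cultures in the same direction, as given above, and their part was not tested.

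Between allografts grown from CRC and from EpiC cells, none of the 31 genes was called by limma, and none reached an unadjusted p under 0.05. Of all 11999 genes 0.00833% were called, and by unadjusted p 4.53% were higher and 3.9% lower. For none of the 31 did the groups stand apart without overlap, against 0.892% of all genes higher and 1.48% lower. The largest difference was that of Arg1, lower in CRC allografts by -1.55 ± 0.74 (95% interval -3.36 to 0.25, adjusted p 0.607 by limma), followed by Cx3cr1 at 1.18 ± 0.77 (-0.71 to 3.07). For C1qa the difference was -0.21 ± 0.50 (-1.44 to 1.02), for Csf1r -0.35 ± 0.39 (-1.30 to 0.60), and for Mrc1, with the narrowest interval, -0.10 ± 0.23 (-0.66 to 0.47). With 3 EpiC allografts the intervals were wide. They were also made with the residual degrees of freedom alone, which makes them wider than intervals that match the p-values. The lack of calls does not show that the groups were alike.

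Genotype was compared within the CRC allografts, 3 Brca1hom against 3 Brca1het. No gene of 11928 was called (0% in either direction), and the smallest adjusted p among the 31 was 0.285, for Itgam. The Brca1hom allografts nevertheless lay above all Brca1het allografts for 14 of the 31 genes, against 9.43% of all tested genes, and below them for none, against 9.93%. By unadjusted p under 0.05, 15 were higher, against 4.73% of all genes, and none lower, against 5.72%. The median difference was 0.77 over the 31 genes and -0.01 over all. The 31 genes were read in the same libraries and do not count as separate evidence. Their values summed to 14395 to 21397 FPKM in the Brca1hom and 7730 to 10191 FPKM in the Brca1het CRC allografts. Of the Brca1het EpiC allografts, which are outside this comparison, 4C summed to 7587 FPKM and 5A to 20679 FPKM, inside the Brca1hom range.

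Itgam was 61.0, 43.8 and 41.7 FPKM in Brca1hom allografts 1, 2 and 12 and 14.5, 12.8 and 24.3 FPKM in Brca1het allografts 10B, 10C and 11C, a difference of 1.49 ± 0.29 (log2 ± SE). Csf1r was 410.0, 157 and 202 FPKM against 80.9, 99.7 and 104 FPKM (1.31 ± 0.37). Cd14 was 187, 110.5 and 69.5 FPKM against 32.2, 33.7 and 44.5 FPKM (1.60 ± 0.37). In each case the lowest Brca1hom library was above the highest Brca1het library. The others without overlap were C1qa (1.05 ± 0.31), C1qb (0.77 ± 0.25), C1qc (1.17 ± 0.32), Ctss (1.14 ± 0.28), Cybb, Spi1, Fcgr3, Fcgr2b, Cd68, Mrc1 (0.90 ± 0.22) and Msr1.

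Some of the 31 did not take part. Tyrobp was 263, 499.8 and 632 FPKM in the Brca1hom allografts and 417, 439 and 369 FPKM in the Brca1het allografts, a difference of 0.10 ± 0.35. Cx3cr1 differed by -0.08 ± 0.57, Aif1 by -0.27 ± 0.46 and Pf4 by -0.53 ± 0.63. CRC allograft 1 was the lowest of the 6 in all 4 of these genes and the highest in Csf1r, Cd14 and Itgam. Beside the 31, further macrophage genes summed to 1101 to 1378 FPKM in the Brca1hom and 642 to 809.8 FPKM in the Brca1het allografts. Monocyte markers were higher without overlap, at 146 to 242 against 74.8 to 139 FPKM. Endothelial markers were lower without overlap, at 53.8 to 106 against 112 to 173 FPKM. Fibroblast markers (1391 to 3223 against 2761 to 4889 FPKM) and epithelial markers (291 to 585 against 307 to 505 FPKM) overlapped. Their part in the difference was not tested.

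The aromatase genotype had 2 allografts, 6C (CRC) and 7B (EpiC), set against 5 Brca1het allografts with the medium in the model. No gene was called by limma (0% of 11999). By unadjusted p under 0.05, 4 of the 31 were higher, against 4.63% of all genes, and none lower, against 5.03%. The CYP19A1 allografts lay above Brca1het without overlap for 4 of the 31 genes, against 6.79% of all genes, and below it for Nos2 alone, against 5.98%. The 4 were Ctss, at 1511 and 1499.6 against 373 to 897 FPKM (1.49 ± 0.37, adjusted p 0.442 by limma), Itgam (1.35 ± 0.34), Mrc1 (0.94 ± 0.25) and Fcgr3 (1.02 ± 0.34, log2 ± SE). Summed levels of other markers differed without overlap as well. Monocyte genes were higher, at 159 and 178 against 74.8 to 139 FPKM. Epithelial genes were lower (43.7 and 200.6 against 237 to 894 FPKM), as were neutrophil genes (68.7 and 77.9 against 93.3 to 589.8 FPKM). Mast cell genes were also lower, at 2.55 and 3.87 against 4.89 to 57.2 FPKM. The part of these markers was not tested. The C1q chains did not separate, with C1qa at 1005 and 549 FPKM against 481 to 2065 FPKM.

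**Figure D4:**
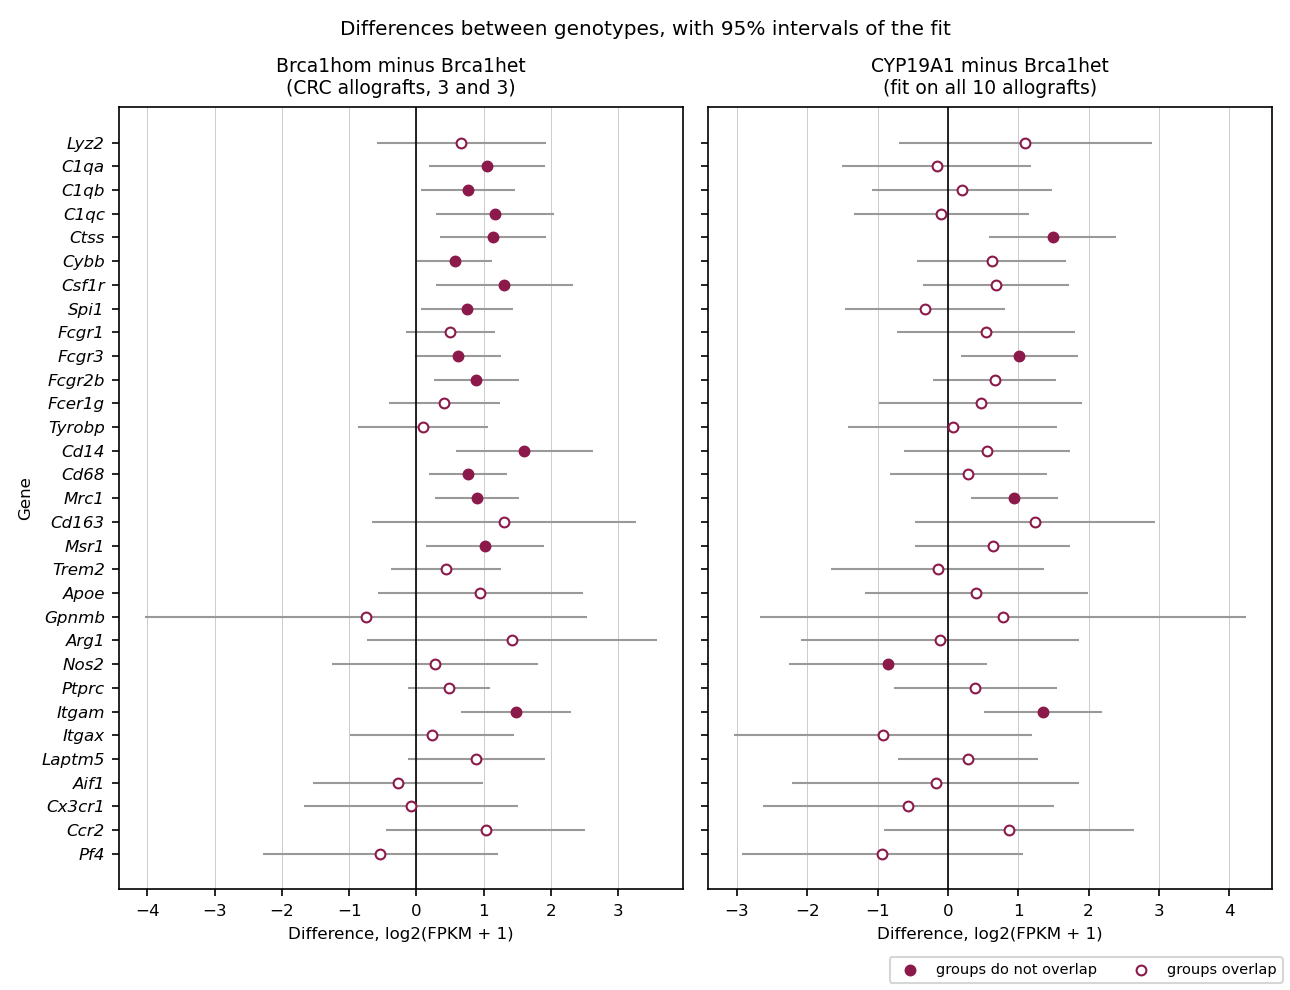
Log2 differences on the log2(FPKM + 1) scale with 95% intervals for the 31 genes, Brca1hom minus Brca1het CRC allografts on the left and CYP19A1 minus Brca1het allografts on the right; filled points mark genes whose groups do not overlap. On the left 14 points are filled, all above 0; on the right 4 filled points are above 0 and 1, Nos2, is below. No gene passed the adjusted test in either comparison. The intervals use the residual degrees of freedom alone and are wider than those that match the p-values.

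Primary cancers held the same genes at their own levels, in a table normalised separately from that of the allografts. The 31 values summed to 2894 FPKM in cancer 1 and 3239 FPKM in cancer 2, and to 115 to 289 FPKM in the 4 cultures grown from them. Both cancers stood above all 4 cultures for 27 of the 31 genes, against 8.23% of all genes that averaged 1 FPKM or more. Of the 29 genes that passed the filter (Cd163 and Gpnmb did not), 14 rose in cancers over CRC cultures, against 0.473% of 12266 genes, and 13 rose over EpiC cultures, against 0.424%. No gene of the list fell in either comparison, against 0.416% and 0.253% of all genes. Of the 31 genes, 22 were under 1 FPKM in all 4 cultures, Cd163 and Gpnmb among them. The others of these 22 entered both comparisons through their levels in the cancers alone. Endothelial markers were also higher in the cancers, at 40.3 and 53.8 FPKM in sum against 0.829 to 2.20 FPKM in the cultures, as were fibroblast markers, at 283 and 131 against 3.44 to 23.3 FPKM, and their part was not tested.

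The C1q chains were nearly equal in the cancers. C1qa was 124 and 119 FPKM, C1qb 112 and 114 FPKM, and C1qc 105 and 105 FPKM in cancers 1 and 2, with at most 0.227 FPKM in a culture. Lyz2 was 365 and 703 FPKM against 0.346 to 1.07 FPKM, a difference from CRC cultures of 8.05 ± 0.56 (log2 ± SE; adjusted p 0.00672 by limma). Its near-identical relative Lyz1 was at 20.4 to 29.6 FPKM in the cancers. Ctss was 229.8 and 294 FPKM, Apoe 1148 and 767 FPKM, and Tyrobp 93.3 and 137 FPKM. These genes were called against both kinds of culture, with C1qa at 6.66 ± 0.52 over CRC and 6.80 ± 0.52 over EpiC cultures. Without the EpiC culture of cancer 1 all of these calls ended, at an adjusted p of 0.0502 over CRC cultures and 0.072 to 0.115 over EpiC cultures. Without the EpiC culture of cancer 2 those over EpiC cultures ended, at 0.0503 to 0.0897.

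Csf1r was again the gene that the EpiC cultures held. Cancers 1 and 2 had 28.5 and 59.8 FPKM, the CRC cultures 0.946 and 0.315 FPKM, and the EpiC cultures 5.67 and 4.75 FPKM. It rose over CRC cultures (4.73 ± 0.61, adjusted p 0.0275) and did not pass over EpiC cultures (2.77 ± 0.61, adjusted p 0.148 by limma). The direct difference between the kinds of culture was -1.95 ± 0.61, with an adjusted p of 1 (unadjusted 0.0155), and 0.00815% of genes were called in that comparison. Fibroblast markers in these EpiC cultures summed to 3.44 and 6.19 FPKM. With the cancer as a block in the model, Csf1r over CRC cultures had an adjusted p of 0.0633, Cybb 0.0716 and Spi1 0.0748, and over EpiC cultures Cybb had 0.078, Spi1 0.0839 and Fcgr3 0.0559, so 11 and 10 calls were left.

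Cd14, Arg1 and Nos2 were also held by cultures or by 1 cancer only. Cd14 was 370.0 and 108 FPKM in the cancers, 88.0 and 224 FPKM in the CRC cultures and 55.8 and 109 FPKM in the EpiC cultures, so the groups overlapped. Arg1 was 26.3 and 266 FPKM in the cancers and 41.2 to 119 FPKM in the cultures. Nos2 was 0.817 FPKM in cancer 1, 75.0 FPKM in cancer 2 and 0.507 to 1.98 FPKM in the 4 cultures, so EpiC cultures of the cancers did not hold the 35.3 to 125 FPKM seen in the first table.

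The cancers differed from each other in part of the list. Cancer 2 had the higher value for 23 of the 31 genes, against 40.2% of all genes. Msr1 was 6.66 FPKM in cancer 1 and 29.4 FPKM in cancer 2, Fcgr3 19.4 and 52.1 FPKM, and Fcgr2b 31.9 and 82.8 FPKM. The reverse held for 8 genes, among them Cx3cr1 (16.9 and 6.11 FPKM), Aif1 (22.1 and 13.6 FPKM), Apoe, and Cd163 (3.35 and 0.108 FPKM). Neutrophil markers summed to 265 FPKM in cancer 1 and 1566 FPKM in cancer 2, while of the mast cell markers cancer 1 held Kit alone (80.3 FPKM, with the other 5 listed at 0). Each cancer is 1 library, so these differences have no replicate check, and the part of neutrophil RNA in them was not tested.

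**Figure D5:**
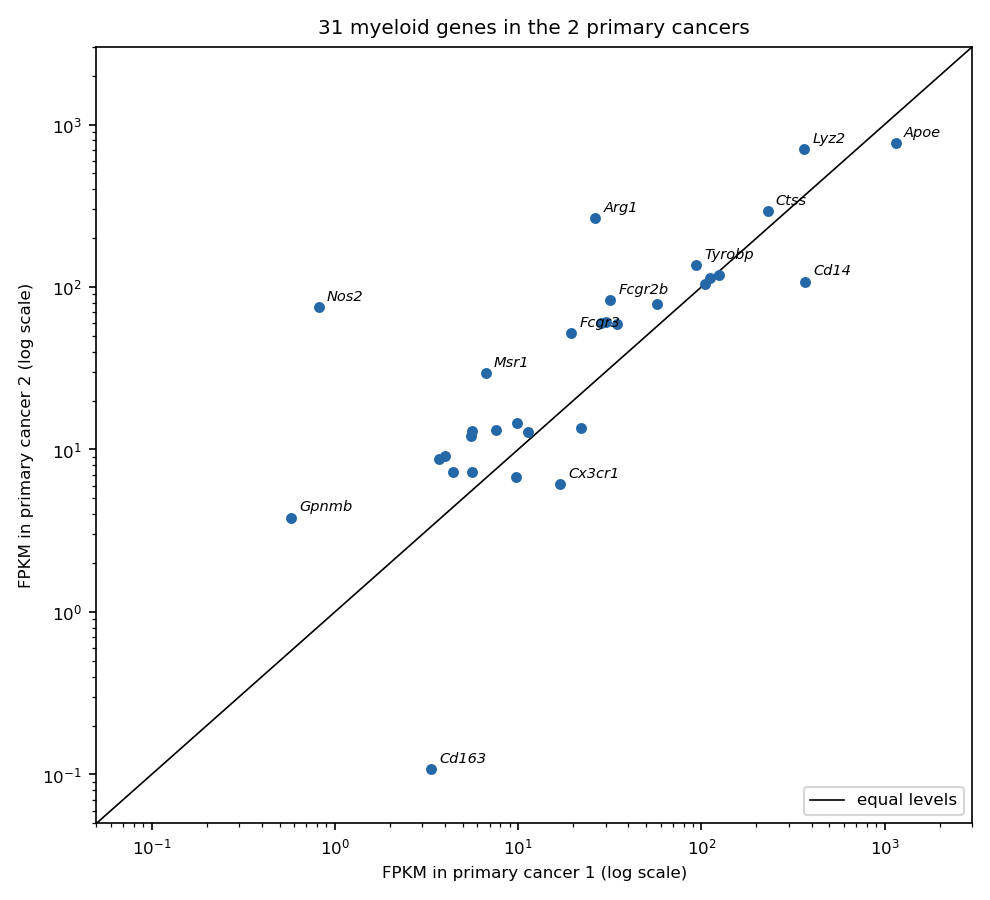
FPKM of the 31 genes in primary cancer 2 against primary cancer 1, both on log axes, with a line of equal levels. The C1q chains lie on or next to the line (C1qc is 105 FPKM in both), 23 genes lie above it, and Nos2 (0.817 and 75.0 FPKM) is the farthest from it.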

How the data were processed

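Poly(A) RNA of mouse cells and tumours was sequenced in 22 libraries. The deposited values are FPKM, per the file names, in a table of 16 libraries and a table of 6 that were normalised separately, so tests stay within a table. FastQC, Trim Galore, TopHat, Cufflinks and the build mm9 are named without versions, per the submitters' processing notes; the sources used here give neither annotation nor scaling. Of the values above 0 in the smaller table, 51.5% had over 6 digits; a final 5, as a mean of a pair would give, closed 97.2% of these; 407 entries that shared 162 symbols were summed. None of 135 pairs of libraries within a table was identical.

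Tests used limma 3.58.1 (R 4.3.3; lmFit, eBayes with trend) on log2(FPKM + 1), which understates changes of low genes, over genes averaging 1 FPKM or more across the fitted libraries, with Benjamini-Hochberg adjustment over all tested genes and calls at an adjusted p under 0.05. States were compared over 16 libraries with terms for genotype and medium, media and CYP19A1 over 10 allografts, Brca1 genotypes over 6 CRC allografts, and the cancers and their cultures in 1 model of 3 groups. The fits other than the interaction were also run on simulated data with independent noise for each gene, unlike genes that move together. The outcome is not used as support here. The alternatives tried were leaving the filter out or raising it to 5 FPKM, a pseudocount of 0.1, rescaling by median ratios, a model without genotype, 10B and 10C as 1 sample, the cancer as a block, and leaving out each library in turn.

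Same-numbered libraries of the second table come from the same cancer, per the labels' titles, so the numbers pair them. Their deviations from group means correlated at -0.0555 (cancers and CRC cultures), -0.113 (cancers and EpiC cultures) and 0.242 (both kinds of culture) across genes.

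All 31 genes are named in every comparison where their values matter. Of each related list the up to 4 genes, and of each marker list the up to 3 genes, with the highest mean in the allografts could be named; Kit, Fcgr4, Lyz1, Ccl7, Mertk and others outside that rule were chosen after their values were seen. The 31 genes, the lists and the tests were chosen with earlier results of these data known.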

Additional observations from a re-analysis of the deposited data

Results flagged for a closer look

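Among the 7 CRC allografts, the highest library stood apart from the rest, by the gap to its nearest neighbour as a share of the whole range, for 8 of 31 genes. The cut-off would flag about 1 in 20 sets of independent, normally distributed values. FPKM values are skewed, the group mixes genotypes and the genes move together, so that rate does not apply here. The count was not made over all genes. CRC allograft 6C (CYP19A1) was that library for Fcgr1 (140.32 FPKM, next highest 65.7 FPKM), Fcgr3 (542.8 FPKM, next 291 FPKM), Fcer1g (1119 FPKM, next 564 FPKM) and Aif1 (230.68 FPKM, next 85.4 FPKM). CRC allograft 1 (Brca1hom) was that library for Cd163 (23.032 FPKM, next 3.22 FPKM), Apoe (12218 FPKM, next 3551 FPKM) and Gpnmb (50.444 FPKM, next 10.6 FPKM). CRC allograft 2 (Brca1hom) was that library for Arg1 (202.01 FPKM, next 39.5 FPKM).

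The difference between allografts and cultures was not the same in the media for 3 genes, by the interaction test of limma. The CRC difference exceeded the EpiC difference by 2.64 for Trem2 and by 5.65 for Nos2 on the log2 scale, and it was smaller for Arg1, with an interaction of -6.18.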

How the results depend on the processing

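No value reversed its direction. Among the calls on the 31 genes, 110 of 115 held with a pseudocount of 0.1, 114 of 115 without a filter, 115 of 115 after rescaling by median ratios, 101 of 107 with a filter at 5 FPKM, 88 of 88 without genotype in the model, 85 of 86 with 10B and 10C as 1 sample, and 21 of 27 with the replicate block (cancer number). The block left 11 calls over CRC cultures, 10 over EpiC cultures and 0 between the cultures of the cancers. With a filter at 5 FPKM, 1 gene was called between the cultures, 9 in cancers over CRC cultures and 8 over EpiC cultures; Fcgr3, Fcgr2b and Laptm5 were still tested and lost both calls (adjusted p 0.0802 to 0.214).

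Leaving out each library in turn gave 27 to 28 calls for allografts over cultures, 26 to 29 within each medium, 1 to 3 for the interaction, 1 to 3 between the cultures, 0 to 24 for cancers over CRC cultures and 0 to 23 over EpiC cultures. The interaction count was 1 without CRC culture 2, CRC culture 3, EpiC culture 2 or EpiC allograft 7B. The count between the cultures was 1 without culture 2 of either medium. For the cancers the counts were 24 and 23 without cancer 1, 0 and 0 without the EpiC culture of cancer 1, 7 and 0 without the EpiC culture of cancer 2, and 8 and 8 without the CRC culture of cancer 2. Without the CRC culture of cancer 1 the count over CRC cultures was 8, and without cancer 2 the count over EpiC cultures was 20. The lone library of a group is then assumed to vary like the others. The cause was not tested. The counts of 0 between the allografts of the media and between genotypes stayed at 0 in all of these. Rescaling moved the median of all genes in cancers over EpiC cultures from -0.08 to 0.07. Without counts, the depth behind low values is unknown, so cultures at or near 0 FPKM cannot be ranked.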

Other observations

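CRC allograft 1 (Brca1hom) and EpiC allograft 7B (CYP19A1), which share neither medium nor genotype, lay outside the range of the other 8 allografts on the same side for 7 of the 31 genes; this pair was picked after the values were seen. They were below it for Tyrobp (263 and 259 FPKM against 369 to 1034 FPKM), Itgax (1.84 and 1.43 against 3.25 to 41.5 FPKM), Aif1 (23.3 and 22.2 against 49.3 to 231 FPKM), Cx3cr1 (18.7 and 7.35 against 43.4 to 139 FPKM) and Pf4 (13.7 and 9.61 against 24.8 to 110.4 FPKM). They were above it for Cd163 (23.0 and 15.4 against 1.09 to 3.22 FPKM) and Gpnmb (50.4 and 27.5 against 0.553 to 10.6 FPKM). The pair was unlike in others of the remaining 24 genes, such as Apoe (12218 and 3191 FPKM), C1qa (1624 and 549 FPKM) and Csf1r (410.0 and 154 FPKM). CRC allograft 6C and EpiC allograft 5A lay together above the other 8 for 8 genes, and no pair had a larger number of genes outside. These counts were not made over all genes, so they do not show whether the pairs stand apart for the 31 genes in particular.

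Outside the list, Ccl12, a monocyte attractant, was 2.87 FPKM in CRC allograft 1 and 5.20 FPKM in EpiC allograft 7B, against 47.8 to 431 FPKM in the others, and Ccl7 was 1.00 and 1.06 FPKM against 39.1 to 125 FPKM. Mertk, a receptor for the uptake of dying cells, was 14.5 and 9.07 FPKM against 1.07 to 6.35 FPKM.

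Relative to the geometric mean of the C1q chains in the same library, Cd68 and Spi1 varied least among the 10 allografts apart from the chains themselves, by 1.63-fold and 1.89-fold between the lowest and highest library. Gpnmb (129-fold), Itgax (53.2-fold), Cd163 (17.6-fold) and Arg1 (14.3-fold) varied most.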
